A study of Homo sapiens with 3 samples.

Results

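The cells described here are those in which the streak gene MIXL1 was strongly expressed, in human embryonic stem cell colonies under 2 treatments, named CHIR and CHIR+Activin. Cells were chosen by their own MIXL1 count: a cell was MIXL1-high when it held at least 3 MIXL1 UMIs (transcript molecules, each counted once) after every cell had been thinned at random to 10000 UMIs. By this rule 1787 of 6892 CHIR cells and 1597 of 6543 CHIR+Activin cells were MIXL1-high, 3384 of 13435 in all, from 23361 kept cells of the series. The MIXL1 level is therefore a description throughout.

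The cells were HES3 MIXL1:GFP, an established human embryonic stem cell line with a green fluorescent protein reporter at MIXL1, grown on micropatterns that confine each colony to a printed shape. Colonies were kept for 24 h and then treated for 48 h, and Y27632 (10 µM), an inhibitor of ROCK kinase, was listed for all of them. The CHIR colonies received 6 µM CHIR99021, which inhibits GSK3 and so activates WNT signalling. The CHIR+Activin colonies received 3 µM CHIR99021 with 100 ng/mL Activin A, a ligand that signals through the receptors NODAL uses. The remaining arm received 50 ng/mL BMP4 and is used here only for values set side by side. About 10 micropatterns were taken from each arm into 1 library, so no test between treatments was possible, and the lower CHIR99021 dose and the added Activin cannot be told apart. Median depth before thinning was 24605 UMIs in CHIR and 18148 in CHIR+Activin MIXL1-high cells, and thinning made the depth equal. All intervals are exact 95% intervals, which cover counting error only and say nothing of differences between cultures. Whether transcripts of the reporter allele count as MIXL1 is not stated in the labels or headers.

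In the embryo, NODAL and WNT signals from the posterior epiblast switch on MIXL1, EOMES and TBXT in the primitive streak, the strip of cells from which mesoderm and endoderm leave the epiblast. NODAL signalling passes through the receptor-activated SMAD2 and SMAD3 proteins, which act on DNA with the cofactor FOXH1, whereas WNT signalling passes through beta-catenin and the TCF/LEF factors. Strong NODAL or Activin signalling is known to favour anterior streak and definitive endoderm, and mesoderm leaves the streak under factors such as MESP1.

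The promoter of MIXL1, the gene that chose the cells, and those of CER1 and DKK1, secreted inhibitors that were at least 2-fold higher in CHIR+Activin MIXL1-high cells, are shown because they hold letters known as binding motifs of these pathways. They are the 250 bases before the gene's start in RefSeq, build GRCh38.p14, read 5′ to 3′ on the gene's strand, with chr1:226223414-226223663 (+ strand), chr9:14722734-14722983 (− strand) and chr10:52314031-52314280 (+ strand). Capitals mark the FOXH1 motif AATNCACA or the TCF/LEF motifs CTTTGAA and CTTTGAT, searched on both strands.
MIXL1: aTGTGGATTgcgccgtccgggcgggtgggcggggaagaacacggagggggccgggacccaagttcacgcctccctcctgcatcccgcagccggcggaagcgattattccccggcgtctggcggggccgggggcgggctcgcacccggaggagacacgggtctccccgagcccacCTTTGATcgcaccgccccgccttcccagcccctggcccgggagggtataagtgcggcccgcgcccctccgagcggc
CER1: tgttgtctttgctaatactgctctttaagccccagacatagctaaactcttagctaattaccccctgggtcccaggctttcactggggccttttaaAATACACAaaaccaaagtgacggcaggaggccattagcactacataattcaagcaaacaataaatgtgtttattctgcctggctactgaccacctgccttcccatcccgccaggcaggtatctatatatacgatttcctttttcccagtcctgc
DKK1: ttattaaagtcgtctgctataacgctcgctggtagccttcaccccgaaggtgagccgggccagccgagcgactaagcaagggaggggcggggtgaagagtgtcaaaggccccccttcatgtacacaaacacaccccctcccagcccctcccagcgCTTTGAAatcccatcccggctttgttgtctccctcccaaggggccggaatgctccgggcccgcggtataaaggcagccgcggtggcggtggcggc
In MIXL1, the FOXH1 letters lay on the opposite strand, 249 bases before the start, and CTTTGAT lay 76 bases before it. In CER1, AATACACA began 154 bases before the start, and in DKK1, CTTTGAA began 95 bases before it. Over the full windows of 250 bases before to 50 after the start, the FOXH1 letters stood in 3.31% of 35116 RefSeq promoters and in 6 of the 87 matched promoters (6.90%) of the 98 genes that were at least 2-fold higher. The TCF/LEF letters stood in 6.86% of all promoters and in 9 of the 87 (10.3%), and the T-box motif TCACACCT in 0.980% of all and in 1 of the 87 (1.15%). The SMAD palindrome GTCTAGAC stood in 0.202% of all and in 0 of the 87. GATA6, EOMES and PLXNA2 held none of these letters in the window, and the letters describe sequence only.

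MIXL1-high cells made up 25.9% (24.9 to 27.0) of thinned CHIR cells and 24.4% (23.4 to 25.5) of thinned CHIR+Activin cells. Without thinning, 3 or more MIXL1 UMIs were found in 52.5% of kept CHIR and 39.2% of kept CHIR+Activin cells, at depths that differed. Inside the group MIXL1 was not equal, with a median of 4 UMIs in both libraries but a mean of 4.41 in CHIR and 5.21 in CHIR+Activin. Cells with at least 5 UMIs were 33.7% of CHIR and 45.5% of CHIR+Activin MIXL1-high cells, and cells with at least 8 were 7.27% and 16.8%. Just inside the threshold, 732 CHIR and 527 CHIR+Activin cells held exactly 3 UMIs, and just outside it 1009 and 804 held 2. The highest counts were 16 and 19 UMIs. The intervals of the 2 shares overlapped, and the CHIR+Activin library held more of its MIXL1-high cells at high counts.

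**Figure D1:**
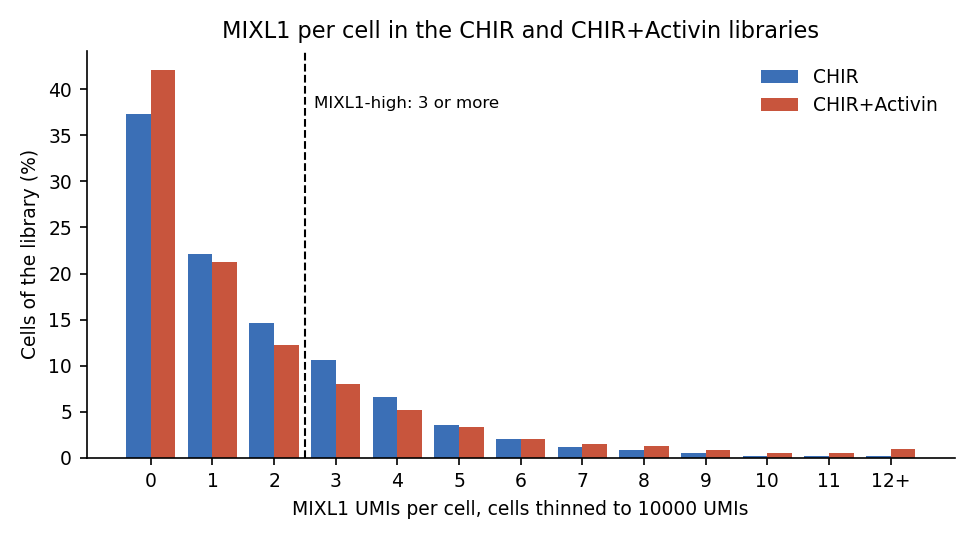
Share of each library's thinned cells (vertical axis, %) by number of MIXL1 UMIs after thinning to 10000 UMIs (horizontal axis), for the CHIR and the CHIR+Activin library, with the threshold of 3 as a dashed line. Among the cells right of the line, counts of 3 were 41.0% in CHIR and 33.0% in CHIR+Activin, and counts of 8 or more were 7.27% and 16.8%.

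The cells were checked against their second marker, EOMES (ENSG00000163508), a T-box factor of the streak. A UMI of EOMES was found in 66.2% (64.0 to 68.4) of the MIXL1-high cells under CHIR and 78.6% (76.5 to 80.6) under CHIR+Activin, against 26.4% and 22.2% of cells with no MIXL1 UMI. Cells with UMIs of EOMES and TBXT but none of SOX2 were 460 of 1787 (25.7%) in CHIR and 611 of 1597 (38.3%) in CHIR+Activin. At the other end, 139 CHIR (7.78%) and 78 CHIR+Activin cells (4.88%) had SOX2 but neither T-box gene, and 222 (12.4%) and 120 (7.51%) had none of the 3. Most of the cells thus held a UMI of EOMES or TBXT, and a minority held neither at this depth. Over the 7 streak markers other than MIXL1, 3 CHIR and 1 CHIR+Activin cells had no UMI at all. The same count was not made in cells with no MIXL1 UMI. FGF8, 1 of the 7, was found in 38.1% of those cells under CHIR and 36.7% under CHIR+Activin. How far a UMI of any of the 7 sets MIXL1-high cells apart was therefore not measured.

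Marker lists of other cell types were read in the same cells. Apart from MIXL1, which chose the cells, all 7 streak markers stood at or above 10 CPM (thinned UMIs of a gene scaled by the total of the summed cells, where 100 CPM is 1 UMI per cell) in both libraries, with a summed level of 811 CPM in CHIR and 965 CPM in CHIR+Activin. Of 6 nascent mesoderm markers, 0 in CHIR and 3 in CHIR+Activin reached 10 CPM, with sums of 8.17 and 57.9 CPM, and MSGN1 was at 0 in CHIR. Of 6 definitive endoderm markers, 2 in CHIR and 5 in CHIR+Activin did, with sums of 227 and 646 CPM. Most of that difference was CER1, at 129 and 517 CPM, and the other 5 markers summed to 98.9 and 129 CPM. FOXA2 was lower in CHIR+Activin (86.6 and 70.2 CPM), and CXCR4 stayed at 1.18 and 1.94 CPM. Epiblast markers summed to 1504 and 1363 CPM, with 5 of 6 at 10 CPM in both, and caudal epiblast markers to 63.5 and 127 CPM, with 2 of 4 at 10 CPM. Of 4 axial mesoderm markers 1 (GSC) reached 10 CPM, with sums of 30.7 and 54.7 CPM, and NOTO was at 0 in CHIR+Activin. Primordial germ cell markers summed to 8.51 and 51.3 CPM, of which SOX17 and PRDM1, shared with the endoderm list, reached 10 CPM in CHIR+Activin. The 4 amnion markers (sums 2.46 and 3.32 CPM), the 4 lateral and extraembryonic mesoderm markers (0.895 and 6.64 CPM) and the 4 neural markers (5.93 and 5.26 CPM) stayed under 10 CPM each. FOXF1 and SOX1 were at 0 in both libraries, and PAX6 in CHIR+Activin. The mesoderm sum and the level of CER1 were thus higher in the CHIR+Activin library. Among the other endoderm markers SOX17, PRDM1, HHEX and CXCR4 were higher too, CXCR4 at under 10 CPM, and FOXA2 was lower. The part of such cells in the other differences was measured only by leaving out cells with MESP1, SOX17 or APLNR.

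Of 9871 genes at 10 CPM or more in MIXL1-high cells of either library, 98 (0.993%) were at least 2-fold higher in CHIR+Activin and 20 (0.203%) at least 2-fold lower. A 4-fold difference was passed by 32 genes upward and 0 downward. Among the 98, 48 were under 10 CPM in CHIR and were compared only because they were higher in CHIR+Activin. Of the 9300 genes at 10 CPM in both libraries, 50 (0.538%) were at least 2-fold higher and 7 (0.0753%) at least 2-fold lower, and the median log2 ratio of CHIR+Activin over CHIR was -0.04. The counts differed with the MIXL1 level. In cells with 1 or 2 UMIs, 16 of 9809 genes (0.163%) were at least 2-fold higher and 9 (0.0918%) lower. In cells with none, 3 of 9868 (0.0304%) were higher and 4 (0.0405%) lower. In cells with 3 to 4 UMIs, 39 of 9860 (0.396%) were higher and 20 (0.203%) lower, and in cells with 5 to 7, 114 of 9953 (1.15%) and 47 (0.472%). In cells with 8 or more, 288 of 10204 (2.82%) were higher and 311 (3.05%) lower. The top bin sums 130 CHIR and 269 CHIR+Activin cells, the fewest UMIs of all. With fewer UMIs, counting error alone puts more genes past 2-fold in either direction. How much of the rise over the upper bins is counting error was not tested. In all thinned cells together, 18 of 9817 (0.183%) were higher and 4 (0.0407%) lower. Of the 98, 28 reached 10 CPM in cells with no MIXL1 UMI, and 2 of these were at least 2-fold higher there too, the growth factor gene FGF17 (log2 ratio 1.82) and ENSG00000289337 (1.04). All 20 lower genes were compared in those cells, and 0 of them were 2-fold lower there, with a median log2 ratio of -0.45 against -1.12 in MIXL1-high cells. Both the 98 and the 20 were chosen by their ratios in MIXL1-high cells, so smaller ratios in other cells are in part built in.

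The 2 libraries were then brought to the same MIXL1 level by drawing equal numbers of cells at each MIXL1 count, 1441 from each, with a mean of 4.63 UMIs. In this draw 64 genes were at least 2-fold higher in CHIR+Activin and 15 lower, and all 64 and 14 of the 15 were among those above. When cells with a UMI of MESP1, SOX17 or APLNR were left out, which left 1733 CHIR and 1330 CHIR+Activin cells, 43 genes were at least 2-fold higher and 12 lower, 41 and 12 of them among those above. Both alternatives reuse most of the same cells, so overlap with the lists above is in part built in. Both were chosen after the data had been seen.

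**Figure D2:**
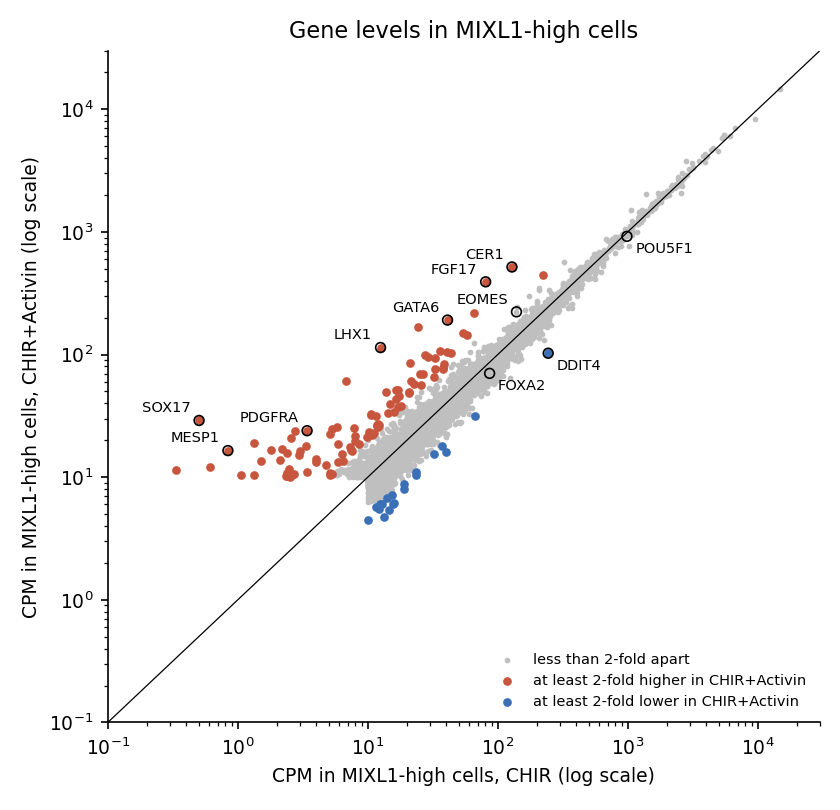
Level of each gene in MIXL1-high cells of CHIR (horizontal axis, CPM, log scale) and of CHIR+Activin (vertical axis, CPM, log scale), with genes at least 2-fold apart coloured and a line of equal level. LHX1, GATA6, FGF17 and CER1 lie 4.02-fold or more above the line, and DDIT4 lies 2.38-fold below it.

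Of genes above 50 CPM, LHX1 (ENSG00000273706), a LIM homeobox factor of the anterior streak, had the largest ratio. It stood at 12.5 CPM (interval 10.9 to 14.3) in CHIR and 114 CPM (interval 109 to 119) in CHIR+Activin, a 9.10-fold difference (log2 ratio 3.19, interval 2.98 to 3.39). A UMI of LHX1 was found in 6.04% (4.98 to 7.25) of cells under CHIR and 25.6% (23.5 to 27.8) under CHIR+Activin. Cells with at least 3 SOX2 UMIs and none of MIXL1 or EOMES, thinned to the same depth (184 CHIR and 327 CHIR+Activin cells), served as cells that should lack streak genes, and LHX1 was found in 0.543% and 0.612% of them. Both shares of MIXL1-high cells were thus above this background. In cells with no MIXL1 UMI the log2 ratio was 0.20, at levels under 10 CPM, and with equal MIXL1 counts it was 2.64. Without the cells holding MESP1, SOX17 or APLNR it was 2.42. The divergent transcript LHX1-DT stood at 2.46 and 11.6 CPM and GATA6-AS1 at 1.79 and 16.6 CPM, and reads of such transcripts cannot be told apart from those of their neighbours where counting ignores strand, which is not stated in the labels or headers.

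EOMES, TBXT and other core streak genes differed by less than 2-fold. EOMES stood at 139 CPM (interval 134 to 145) in CHIR and 223 CPM (interval 216 to 230.3) in CHIR+Activin (log2 ratio 0.68, interval 0.60 to 0.75). TBXT, the brachyury factor, stood at 70.4 and 97.6 CPM (0.47, interval 0.36 to 0.58) and was found in 46.6% and 55.4% of cells, against 22 of 184 and 34 of 327 SOX2-high cells. In cells with no MIXL1 UMI the 2 log2 ratios were -0.16 and -0.06, so both genes were nearly level there. The homeobox factors of the anterior streak GSC (29.5 and 53.2 CPM, log2 ratio 0.85) and OTX2 (19.3 and 37.5 CPM, 0.96) lay just under the 2-fold line. FGF4, a streak growth factor, stood at 76.8 and 106 CPM (0.47), with nearly the same ratio in cells without MIXL1 (0.45). FGF8 (-0.18), WNT3 (0.10) and the WNT target SP5 (0.06) differed little. Of 20 genes in the primitive streak list 16 were compared apart from MIXL1, and 15 of these were at 10 CPM in both libraries. Among the 15, 4 were at least 2-fold higher (LHX1, FGF17, GATA6 and CER1) and 0 lower, of which only FGF17 is not also in the endoderm list. Ratios above 0 were found for 13 of the 15, and their median was 0.47, against 0.00 for the same genes in cells without MIXL1.

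Endoderm factors split. GATA6 (ENSG00000141448), a zinc finger factor of endoderm and early mesoderm, stood at 41.1 CPM (interval 38.2 to 44.2) in CHIR and 191 CPM (interval 184 to 198) in CHIR+Activin, 4.65-fold higher (log2 ratio 2.22, interval 2.10 to 2.34). It was found in 21.3% (19.4 to 23.2) and 48.7% (46.2 to 51.2) of cells, against 0 of 184 CHIR (a count of 0 allows up to 1.63%) and 0.306% of CHIR+Activin SOX2-high cells. Counting of GATA6 in MIXL1-high cells was thus far above background in both libraries. CER1 (ENSG00000147869), made by anterior endoderm and secreted to block NODAL, BMP and WNT ligands, stood at 129 CPM (interval 123 to 134) and 517 CPM (interval 506 to 529), 4.02-fold higher (2.01, interval 1.94 to 2.08). It was found in 46.8% and 70.9% of cells, against 9.24% and 10.4% of SOX2-high cells. With equal MIXL1 counts the log2 ratios were 1.80 for GATA6 and 1.71 for CER1, and in cells without MIXL1 they were 1.15, at levels under 10 CPM, and 0.43.

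SOX17 (ENSG00000164736), an HMG-box factor that defines endoderm, was nearly absent from CHIR MIXL1-high cells, with 9 UMIs in 4 cells. In CHIR+Activin it had 463 UMIs in 92 cells, so it stood at 0.504 and 29.0 CPM (log2 ratio 5.85, interval 4.91 to 6.99). The share of cells went from 0.224% (0.0610 to 0.572) to 5.76% (4.67 to 7.02), and SOX17 was found in 0 of the SOX2-high cells of either library, which allows up to 1.63% and 0.917%. The interval of the ratio takes the UMIs as independent, which 9 UMIs in 4 cells are not. PRDM1, a repressor used by endoderm and germ cells (2.13 and 13.7 CPM, 2.69), and the WNT receptor FZD8 (2.69 and 10.7 CPM) were also higher. GATA4 (0.88) and HHEX, a homeobox factor of anterior endoderm (0.72), had smaller positive ratios, and HHEX had the opposite sign in cells without MIXL1 (-1.01).

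FOXA2 (ENSG00000125798), a forkhead factor of endoderm and axial mesoderm, did not move with them. It stood at 86.6 CPM (interval 82.3 to 91.0) in CHIR and 70.2 CPM (interval 66.1 to 74.4) in CHIR+Activin (log2 ratio -0.30, interval -0.41 to -0.19) and was found in 46.4% and 38.1% of MIXL1-high cells, against 9.78% and 6.42% of SOX2-high cells. The ratio was -0.54 in cells without MIXL1. FOXA3 (0.17) and the receptor KIT (-0.11) differed little, and CXCR4, a chemokine receptor of definitive endoderm, stayed at 1.18 and 1.94 CPM. Of 18 definitive endoderm genes 10 were at 10 CPM in both libraries, and 3 of these were at least 2-fold higher (CER1, GATA6 and LHX1) and 0 lower. SOX17, PRDM1 and FZD8 were under 10 CPM in CHIR and entered the comparison only through CHIR+Activin. Among the 10, 8 had ratios above 0 and 2 below, and the median was 0.78, against 0.05 in cells without MIXL1.

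Nascent mesoderm genes were found in few cells of either library. MESP1 (ENSG00000166823), the bHLH factor of mesoderm leaving the streak, stood at 0.839 CPM (interval 0.470 to 1.38) in CHIR and 16.5 CPM (interval 14.5 to 18.6) in CHIR+Activin (log2 ratio 4.29, interval 3.55 to 5.15). It was found in 14 CHIR cells, 0.783% (0.429 to 1.31), and in 120 CHIR+Activin cells, 7.51% (6.27 to 8.92), against 1.09% and 0.612% of SOX2-high cells. The CHIR share was therefore not above that of the SOX2-high cells, which rests on few cells, and the CHIR+Activin share was above it. The 14 CHIR cells with MESP1 had LHX1 at 121 CPM and GATA6 at 150 CPM, against 11.7 and 40.2 CPM in the other 1773. TBXT (57.1 and 70.5 CPM) and FOXA2 (78.6 and 86.6 CPM) were not higher in them. Of the 14 cells, 4 held LHX1, 7 GATA6, 5 TBXT and 7 FOXA2, so these levels rest on few cells. PDGFRA, a growth factor receptor of mesoderm and early endoderm, stood at 3.41 and 23.9 CPM (2.81, interval 2.42 to 3.22). It was found in 2.80% and 14.5% of cells, against 3.26% and 4.89% of SOX2-high cells, so its CHIR share too was not above theirs. In CHIR it was found in 2.19%, 2.97% and 7.69% of cells with 3 to 4, 5 to 7 and 8 or more MIXL1 UMIs. APLNR, the apelin receptor of migrating mesoderm, stood at 2.35 and 10.2 CPM (2.12). The mesoderm factors TBX6 (0.895 and 5.39 CPM) and MESP2 (0.672 and 1.82 CPM) stayed under 10 CPM. HAND1, a factor of lateral and extraembryonic mesoderm, had 1 UMI in CHIR and 74 in CHIR+Activin. Of 15 genes in this list 4 were compared, 3 of them at least 2-fold higher, and all 4 were under 10 CPM in CHIR, so the list carries no weight beyond these values.

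Several of the higher genes were counted in the same cells in both libraries. Of 409 CHIR+Activin cells with LHX1, 386 (94.4%) also held GATA6 and 403 (98.5%) CER1. Among all MIXL1-high cells of that library GATA6 was in 48.7% and CER1 in 70.9%. In CHIR, 68 of 108 cells with LHX1 (63.0%) held GATA6 and 89 (82.4%) CER1, against 21.3% and 46.8% of all MIXL1-high cells. Cells with LHX1 thus held GATA6 at 1.94 times the overall share in CHIR+Activin and 2.96 times in CHIR. For CER1 the values were 1.39 and 1.76 times. A high overall share limits how large such a multiple can be, and the CHIR+Activin values lie near that limit. The multiples therefore cannot rank the overlap of the 2 libraries. In CHIR+Activin, the 778 cells with GATA6 had LHX1 at 229.7 CPM, CER1 at 923 CPM and SOX2 at 14.9 CPM, while the 819 without GATA6 had them at 4.15, 132 and 56.5 CPM. In CHIR, the 380 cells with GATA6 had LHX1 at 42.4, CER1 at 322 and SOX2 at 14.5 CPM. Cells with GATA6 were thus low in SOX2 to a like degree in both libraries, and within them LHX1 and CER1 were higher in CHIR+Activin. Cells with GATA6 also held more MIXL1 (541 CPM in CHIR and 631 CPM in CHIR+Activin) than cells without (414 and 416 CPM).

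In CHIR+Activin 11 cells held both MESP1 and SOX17, of 120 with MESP1 and 92 with SOX17. SOX17 was thus in 9.17% of cells with MESP1, against 5.76% of all MIXL1-high cells. Cells with MESP1 and cells with SOX17 mostly held GATA6, in 112 of 120 and 87 of 92, and LHX1, in 92 of 120 and 82 of 92. The share of all MIXL1-high cells is therefore not a like-for-like measure for this overlap. SOX17 was in 87 of 778 cells with GATA6 (11.2%) and 82 of 409 with LHX1, both larger shares than in cells with MESP1. Whether MESP1 and SOX17 are kept apart was not tested, and the overlap rests on 11 cells. Other genes had unlike shares in the cells with MESP1 and those with SOX17, which share those 11 cells. APLNR was found in 48 of 120 cells with MESP1 and 16 of 92 with SOX17, FOXA2 in 17 of 120 and 34 of 92, and PDGFRA in 51 of 120 and 57 of 92. WNT5A, a ligand of non-canonical WNT signalling, stood at 105 CPM in cells with MESP1 and 19.6 CPM in cells with SOX17. A gene without a UMI in a cell of 10000 UMIs may still be expressed, so these counts are lower limits of overlap. The 4 CHIR cells with SOX17 all held GATA6 and CER1.

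Among growth factors, FGF17 (ENSG00000158815), a ligand of FGF receptors expressed in the streak, stood at 80.7 CPM (interval 76.6 to 85.0) in CHIR and 391 CPM (interval 382 to 401) in CHIR+Activin, 4.85-fold higher (log2 ratio 2.28, interval 2.20 to 2.36). It was found in 27.1% and 60.6% of cells, against 1.09% and 2.45% of SOX2-high cells. In cells without MIXL1 the ratio was 1.82, from 4.40 and 15.5 CPM, so the difference in FGF17 was not limited to MIXL1-high cells. Of 9 FGF ligands and receptors compared out of 12, FGF17 was the 1 at least 2-fold higher and 0 were lower, with a median of -0.15. Feedback genes of FGF and ERK signalling went the other way. Of 14 compared out of 15, 13 had ratios below 0, with a median of -0.30, and -0.14 in cells without MIXL1. DUSP6, a phosphatase of ERK, was the 1 that was at least 2-fold lower (23.4 and 10.5 CPM, -1.16, interval -1.43 to -0.90), and the ERK inhibitors SPRY2 (-0.26), SPRY4 (-0.17) and SPRED1 (-0.23) had small negative ratios.

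NODAL, its receptors and most of its targets differed little between these cells. NODAL stood at 205 and 216 CPM (log2 ratio 0.08, interval 0.01 to 0.14), and its co-receptor TDGF1 had a ratio of 0.09. None of the 11 compared ligands, co-receptors and receptors, out of 18, was 2-fold apart, with a median of 0.08. LEFTY1 (142 and 169 CPM, 0.25) and LEFTY2 (83.6 and 118 CPM, 0.50), NODAL targets that inhibit it, are near-identical copies whose counts are uncertain to that extent. LEFTY2 had a larger ratio in cells without MIXL1 (0.91) than in MIXL1-high cells. Of 17 targets and inhibitors compared out of 20, 2 were at least 2-fold higher and 0 lower, with 11 above and 6 below 0 and a median of 0.08.

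WNT pathway genes included the secreted inhibitors DKK1 and DKK4. DKK1, which blocks WNT co-receptors, stood at 43.4 and 103 CPM, 2.36-fold higher (1.24, interval 1.12 to 1.37), but at a log2 ratio of 0.88 with equal MIXL1 counts and 0.97 without the cells holding MESP1, SOX17 or APLNR. DKK4 stood at 2.41 and 10.8 CPM (2.17), with 0.86 when those cells were left out. LGR5, an R-spondin receptor and WNT target, had 0.616 and 12.2 CPM (4.31, interval 3.44 to 5.34), and WNT5A had 1.51 and 13.6 CPM (3.17, interval 2.59 to 3.80), and a ratio of 1.86 without those cells. Common feedback genes did not follow. AXIN2, which promotes beta-catenin breakdown, had a ratio of -0.12, NKD1 of 0.04 and LEF1, a partner of beta-catenin, of -0.63 (18.1 and 11.7 CPM). Of 21 feedback and target genes 13 were at 10 CPM in both libraries, and 1 of these (DKK1) was at least 2-fold higher and 0 lower, with a median of -0.04. ROR2, a receptor of WNT5A, stood at 208 and 337 CPM (0.70), and at -0.37 in cells without MIXL1.

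The BMP ligand BMP2 stood at 5.76 and 25.5 CPM, 4.42-fold higher (2.14, interval 1.83 to 2.47), with 1.75 at equal MIXL1 counts. The BMP target genes ID1 (0.42) and ID3 (-0.29) had ratios of opposite sign, each under 2-fold. BMP2 was under 10 CPM in CHIR, and of the 5 BMP genes at 10 CPM in both libraries, out of 16, 0 were 2-fold apart. NOTCH ligands and targets had 0 of 7 compared genes 2-fold apart.

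**Figure D3:**
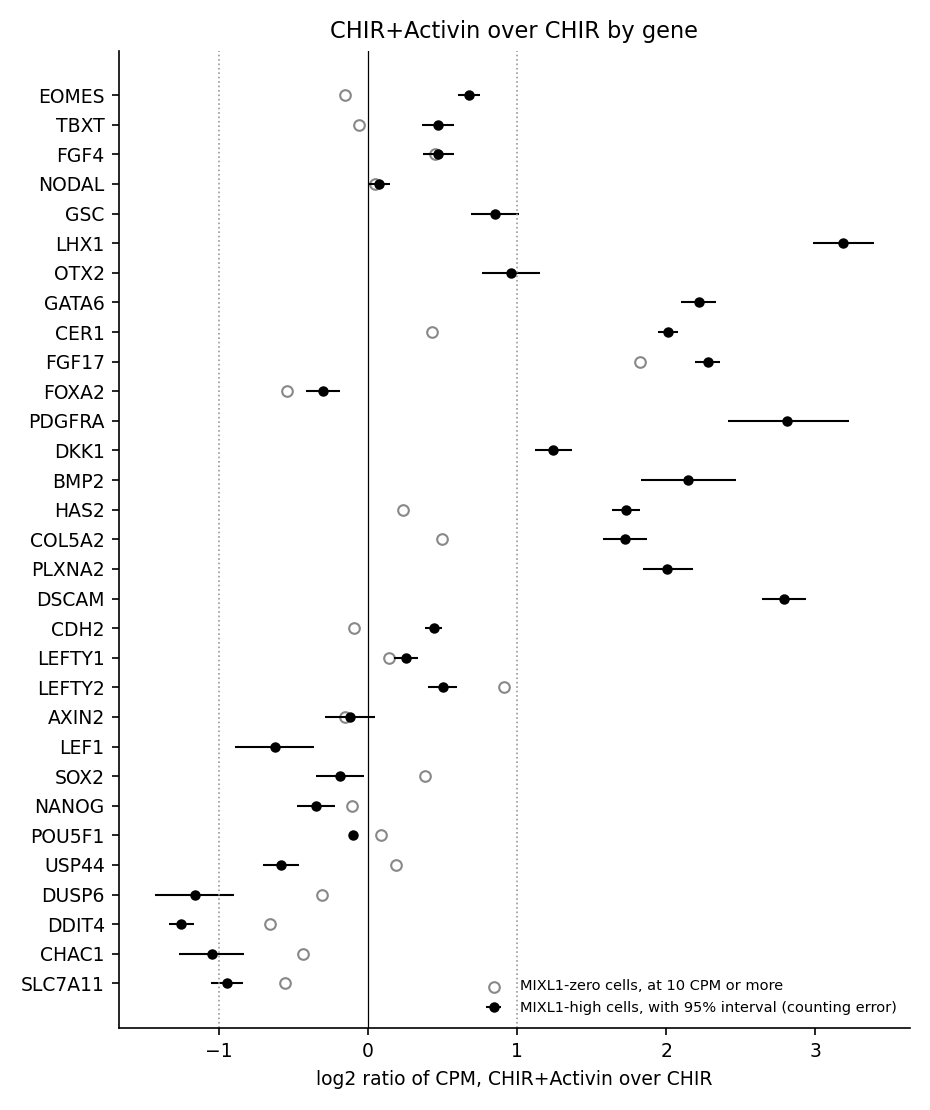
Log2 ratio of CHIR+Activin over CHIR (horizontal axis) for named genes, in MIXL1-high cells with exact 95% intervals of counting error and, where the gene reached 10 CPM there, in cells without a MIXL1 UMI. CER1 is at 2.01 and 0.43 and EOMES at 0.68 and -0.16 in the 2 sets of cells, and DDIT4 is at -1.25 and -0.66.

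Genes of matrix, guidance and adhesion were among those with the largest differences. HAS2, which makes hyaluronan, stood at 65.9 and 218 CPM, 3.32-fold higher (1.73, interval 1.63 to 1.83). The fibrillar collagen gene COL5A2 stood at 29.0 and 95.7 CPM (1.72), and COL5A1 at 11.2 and 22.9 CPM (1.03), the latter at 0.81 with equal MIXL1 counts. These 3 were the ones at least 2-fold higher among 13 matrix genes at 10 CPM in both libraries, out of 18, with 0 lower and a median of -0.05. PLXNA2, a semaphorin receptor, stood at 21.0 and 84.6 CPM, 4.02-fold higher (2.01, interval 1.84 to 2.18). DSCAM, an adhesion molecule and netrin receptor of neurons, stood at 24.3 and 168 CPM, 6.91-fold higher (2.79, interval 2.64 to 2.94), and the ligand NTN1 (netrin) at 58.0 and 143 CPM (1.31, and just under 2-fold without the cells holding MESP1, SOX17 or APLNR). FLRT3, an adhesion protein (5.32 and 24.6 CPM, 2.21), and the co-receptor NRP2 (1.07) were higher too. Of 21 migration and guidance genes 12 were at 10 CPM in both libraries, and 3 of these (DSCAM, NTN1 and NRP2) were at least 2-fold higher and 0 lower, but the median of the 12 was -0.06. Differences in these lists thus lay in a few genes.

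Genes of the epithelial to mesenchymal switch stayed within 2-fold, 0 of 11 compared being apart. The cadherin gene CDH2 stood at 248 and 336 CPM (0.44), CDH1, the epithelial cadherin, at 154 and 115 CPM (-0.43), and the repressor SNAI1 at 11.9 and 18.3 CPM (0.62). CYP26A1, which degrades retinoic acid, stood at 27.6 and 98.4 CPM (1.83, interval 1.69 to 1.98). ENSG00000292246 (6.83 and 61.2 CPM, 3.16) and ENSG00000254587 (17.0 and 51.7 CPM, 1.60), which have no symbol in the files, were also among the 12 largest ratios toward CHIR+Activin.

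Pluripotency genes were close in the 2 libraries. SOX2 stood at 41.3 and 36.3 CPM (log2 ratio -0.19, interval -0.35 to -0.03) in MIXL1-high cells, whereas its ratio in cells without MIXL1 had the opposite sign (0.38). NANOG stood at 67.1 and 52.7 CPM (-0.35), POU5F1 at 985 and 919.9 CPM (-0.10) and USP44 at 82.3 and 55.0 CPM (-0.58). With equal MIXL1 counts SOX2 had a ratio of -0.01 and NANOG of -0.22. None of 19 epiblast genes compared, out of 21, was 2-fold apart, 14 had ratios below 0, and the median was -0.13, against 0.09 in cells without MIXL1.

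Genes that were lower in CHIR+Activin included stress genes. DDIT4 (ENSG00000168209), a stress-induced inhibitor of mTORC1, stood at 244 CPM (interval 237 to 252) in CHIR and 103 CPM (interval 97.6 to 108) in CHIR+Activin, 2.38-fold lower (-1.25, interval -1.34 to -1.17), and its ratio was -0.66 in cells without MIXL1. CHAC1, a glutathione-degrading target of the integrated stress response, stood at 32.3 and 15.6 CPM (-1.05, and -0.87 with another thinning seed). The cystine transporter SLC7A11 (123 and 64.1 CPM, -0.94), the sestrin SESN2 (52.2 and 28.1 CPM, -0.90), ATF3 (-0.90) and the serine synthesis enzyme PSAT1 (-0.62) lay under 2-fold. Of 13 integrated stress genes compared, out of 16, 2 were at least 2-fold lower, 0 were higher and 11 had ratios below 0, with a median of -0.62 against -0.37 in cells without MIXL1. The difference was therefore present in both sets of cells. Glycolysis genes had 13 of 16 ratios below 0 and 0 genes 2-fold apart, with a median of -0.21, the glucose transporter SLC2A1 at -0.58 and the lactate transporter SLC16A3 at -0.90. Lists of S phase (0.00), G2 and mitosis (0.09), p53 (0.06), cholesterol synthesis (-0.13) and mitochondrially encoded genes (0.02) had small medians and 0 members 2-fold apart. Ratios were below 0 for 14 of 16 cholesterol synthesis genes and above 0 for 14 of 18 G2 and mitosis genes.

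The 12 largest ratios toward CHIR among genes above 50 CPM began with DDIT4 and VLDLR-AS1 (66.8 and 31.3 CPM, -1.09, and -0.99 with another thinning seed), and only these 2 were 2-fold lower. By its name VLDLR-AS1 is antisense to a receptor gene, and the same limit of strand applies. After SLC7A11 and SESN2 came the amino acid transporter SLC7A8 (-0.89), the secreted stanniocalcin STC2 (-0.86), the protease ADAMTS20 (-0.81), the potassium channel KCNT2 (-0.77), the G protein subunit GNA14 (-0.76), the tetraspanin TSPAN5 (-0.76), the adhesion protein NTM (-0.74) and the phosphatase PTPRZ1 (152 and 92.5 CPM, -0.72). The last 2 were nearly level in cells without MIXL1 (-0.12 and -0.11).

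**Figure D4:**
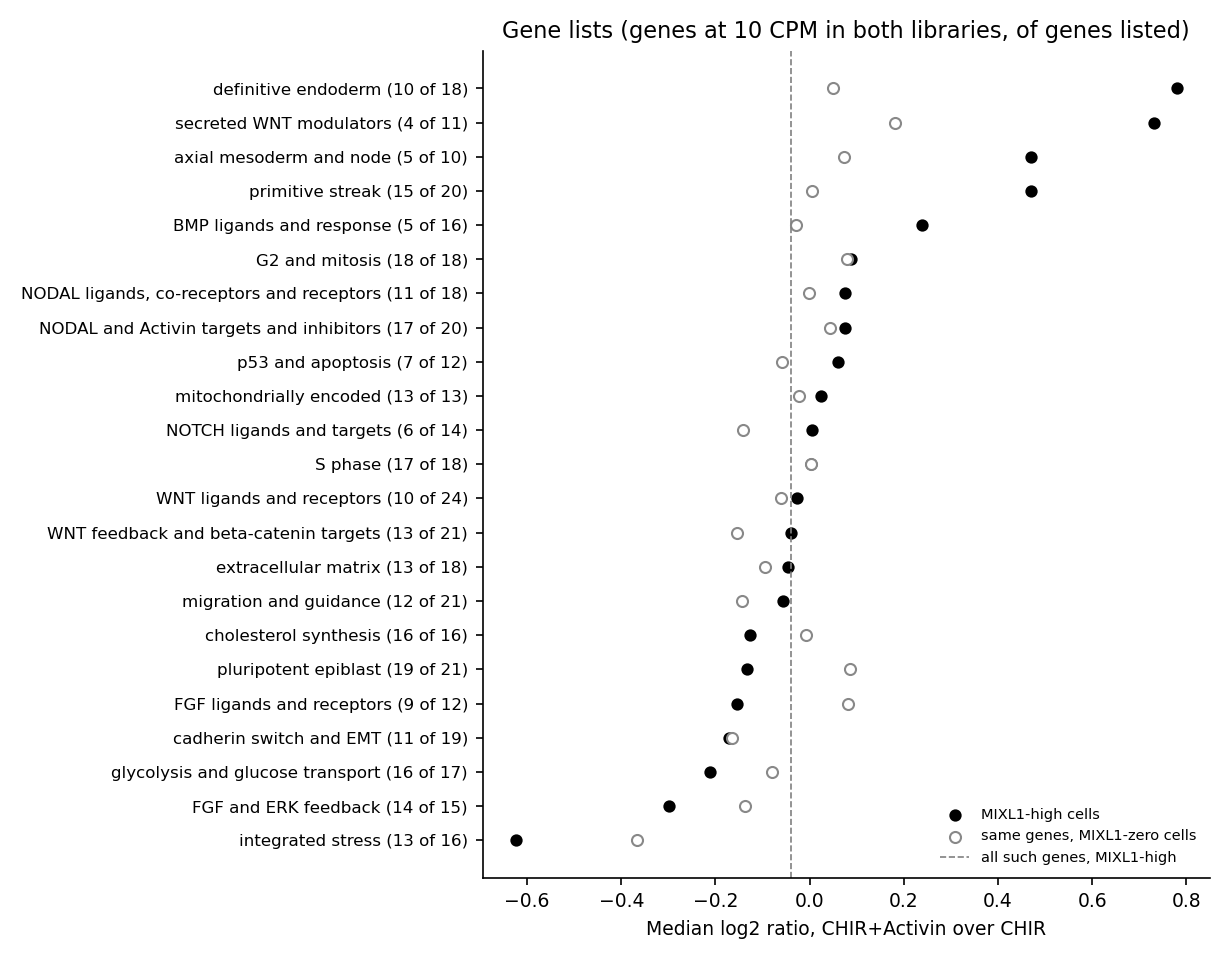
Median log2 ratio of CHIR+Activin over CHIR (horizontal axis) for gene lists with at least 4 genes at 10 CPM in MIXL1-high cells of both libraries, in MIXL1-high cells (filled) and for the same genes in cells without a MIXL1 UMI (open), with the median of all such genes as a dashed line at -0.04. Definitive endoderm is at 0.78 against 0.05, primitive streak at 0.47 against 0.00 and integrated stress at -0.62 against -0.37.

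The differences were followed over the MIXL1 count, in cells with 0, 1 to 2, 3 to 4, 5 to 7 and 8 or more UMIs. These bins held 2569, 2536, 1185, 472 and 130 CHIR cells and 2753, 2193, 870, 458 and 269 CHIR+Activin cells. LHX1 was found in 1.56%, 2.52%, 4.30%, 6.78% and 19.2% of CHIR cells in that order. In CHIR+Activin the shares were 1.42%, 3.24%, 11.3%, 30.3% and 63.9%. The libraries were alike at 0 UMIs and apart from 3 UMIs upward. GATA6 was found in 14.4%, 29.2% and 54.6% of CHIR cells in the upper 3 bins and in 32.0%, 59.0% and 85.5% of CHIR+Activin cells. MESP1 stayed between 0.591% and 1.54% of cells in all CHIR bins. Over the upper 3 bins it was in 0.591%, 1.06% and 1.54% of CHIR cells (7, 5 and 2 cells). In CHIR+Activin it was found in 3.33%, 9.39% and 17.8% of cells in these bins. More MIXL1 thus went with more MESP1 in CHIR+Activin. The CHIR shares had the same order over these bins but rest on few cells, with an interval of 0.187 to 5.45 for the 130 cells of the top bin. Whether the libraries differ in this was not tested.

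The ratios of further genes were read over the same bins. The log2 ratio of EOMES over the 5 bins was -0.16, 0.02, 0.40, 0.61 and 0.84. CER1 had 0.43, 0.92, 1.64, 1.88 and 1.74. FOXA2 was below 0 in every bin, between -0.54 and -0.28, and so was DDIT4, between -1.75 and -0.66. EOMES and CER1 thus had larger ratios in the 3 upper bins than in the 2 lower ones, DDIT4 had lower ones, and FOXA2 had no such order. LEFTY2 went the other way, from 0.91 at 0 UMIs to -0.15 at 8 or more. The libraries hold similar mean MIXL1 counts within the bins up to 7 UMIs, and in the top bin 9.30 in CHIR and 10.2 in CHIR+Activin.

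**Figure D5:**
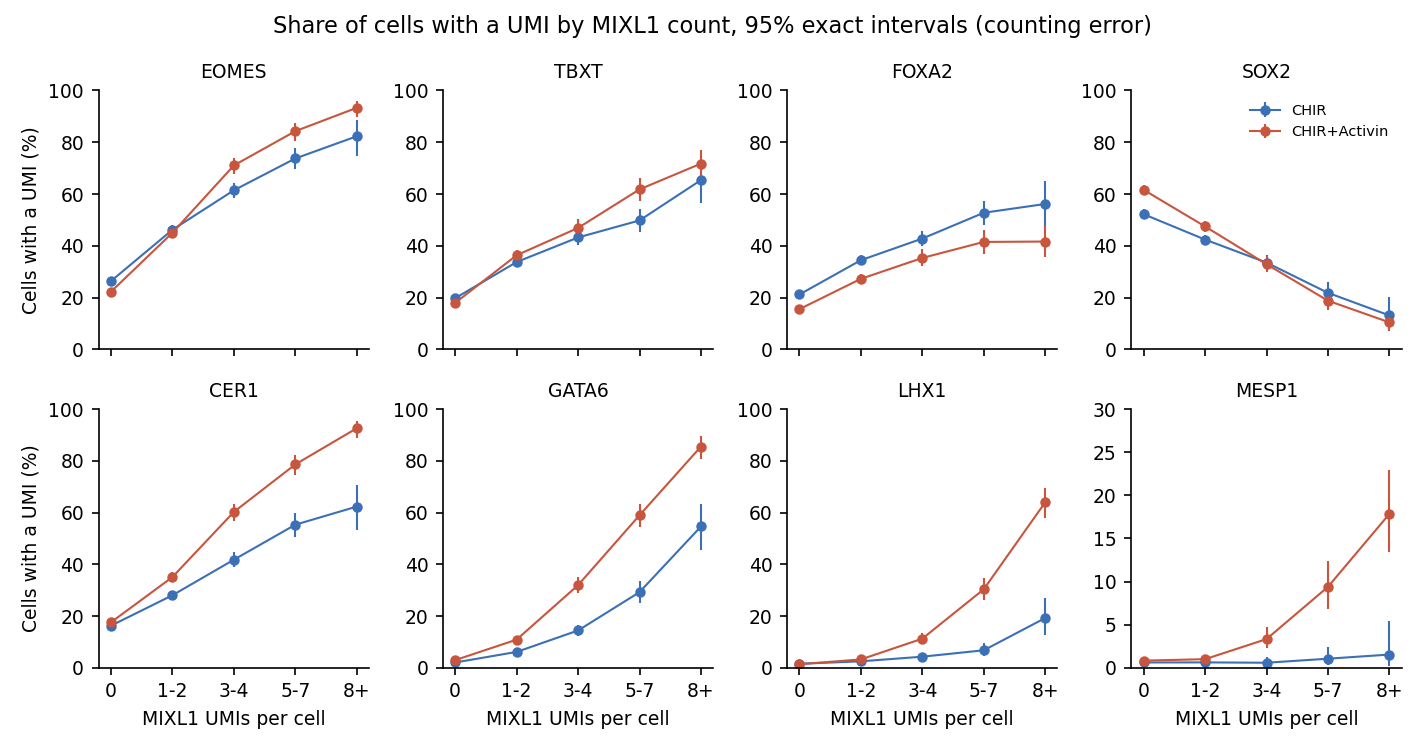
Share of cells with a UMI of each gene (vertical axis, %) by MIXL1 UMIs per cell (horizontal axis) in the CHIR and CHIR+Activin libraries, with exact 95% intervals of counting error. The LHX1 lines meet at 0 UMIs (1.56% and 1.42%) and stand at 19.2% and 63.9% at 8 or more, and the SOX2 shares fall with MIXL1 in both libraries.

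Within each library, MIXL1-high cells were set beside cells without MIXL1, as a description since MIXL1 chose them. In CHIR, 64 of 9965 genes (0.642%) were at least 2-fold higher in MIXL1-high cells and 50 (0.502%) lower. In CHIR+Activin the counts were 235 of 9914 (2.37%) and 170 (1.71%). Of the higher genes 61 were shared, which is 95.3% of the CHIR list and 61 of 235 in the other, and of the lower genes 45 were, 90.0% and 26.5% of the lists. The genes closest to MIXL1 in both libraries, by the smaller of the 2 log2 ratios among genes above 50 CPM, were FGF17 (4.20 in CHIR and 4.65 in CHIR+Activin), CER1 (2.48 and 4.06), FGF4 (2.30 and 2.31), ENSG00000249988 (2.15 and 2.36) and EOMES (1.94 and 2.78). ROR2 (1.67 and 2.74), LINC02955 (1.55 and 3.04), TBXT (1.51 and 2.04), the teneurin gene TENM4 (1.49 and 1.69) and NTN1 (1.48 and 2.84) followed. This choice fixes that they stand high in both libraries, and MIXL1-high cells of CHIR+Activin held more MIXL1 on average.

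In the BMP4 library 3252 of 7041 thinned cells (46.2%) were MIXL1-high by the same rule, and their levels are given only side by side. MESP1 stood at 364 CPM there, against 0.839 in CHIR and 16.5 in CHIR+Activin. GATA6 stood at 393 CPM, LHX1 at 220.5, CER1 at 477 and TBXT at 280.2 CPM. FOXA2 stood at 2.40 CPM, under both other libraries, and DSCAM at 27.1 CPM, near CHIR. SOX17 stood at 36.0 CPM, and EOMES at 242 CPM. The CHIR+Activin level lay between CHIR and BMP4 for these genes except CER1 and DSCAM, which were highest in CHIR+Activin.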

How the data were processed

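RNA was counted by 10x Genomics 3' single-cell sequencing in 3 libraries, 1 per treatment. The deposited values are raw UMI counts for each gene in each barcode. Per the file headers, Cell Ranger 8.0.1 produced them, and the submitters' processing notes list Seurat as well. No genome build or annotation release is stated in the labels or headers. The 38606 listed genes keep their Ensembl IDs and symbols. The CHIR and CHIR+Activin files hold called cells (7706 and 7391 barcodes), and in the BMP4 file of all droplets, cells were called at a minimum of 3739 UMIs, set to 10% of the percentile 99 among the top 10000 barcodes.

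Barcodes with at least 2000 genes and at most 15% mitochondrial UMIs were kept, 7084 in CHIR, 6876 in CHIR+Activin and 9401 in BMP4. CHIR and CHIR+Activin shared 12 kept barcodes and 0 among MIXL1-high cells. Each cell was thinned to 10000 UMIs with a fixed seed, which left out 192 CHIR and 333 CHIR+Activin cells as shallower. Thinned UMIs were summed over cells of a library and scaled to CPM by their total. The log2 ratio carries an exact conditional binomial interval, a level an exact Poisson interval and a share a Clopper-Pearson interval, all at 95% and for counting error only, and a count of 0 allows 3 counts. Genes at 10 CPM in either library were compared, and 2-fold is a description without a test. Doublets were kept. Among MIXL1-high cells, 6.10% of CHIR and 5.89% of CHIR+Activin were among the 6% of each library with the highest Scrublet score, which were left out as an alternative. Mitochondrial UMIs had medians of 4.87% and 4.92%.

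Named genes were MIXL1 and EOMES, members of 29 gene lists at 10 CPM, defining markers at any level, the 12 largest ratios in each direction at 50 CPM and the 10 closest companions of MIXL1, except that some of these genes are not reported here. ENSG00000289337, LHX1-DT and GATA6-AS1 were named after their values were seen. The cells, lists and markers were chosen with earlier results of these data known. On data simulated from these cells, 100% of 200 genes planted 3-fold apart among 9705 and 0 unchanged genes were found 2-fold apart, and 95.1% of intervals held the simulated ratio. The simulation drew counting error only, from summed levels, and the planted genes stood well above the 10 CPM limit. It therefore does not show how well genes near that limit are found, nor does it cover spread between cells or cultures. Python 3.11.15, numpy 2.4.6, scipy 1.17.1, scikit-learn 1.9.0 and matplotlib 3.10.9 were used.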

Additional observations from a re-analysis of the deposited data

How the results depend on the processing

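The share of cells called MIXL1-high follows the threshold and depth. In CHIR it was 40.6% at 2 or more UMIs, 8.73% at 5 or more, 24.6% with another thinning seed, 21.3% with cells thinned to 5000 UMIs and at least 2 of MIXL1, and 52.5% without thinning. In CHIR+Activin it was 36.7%, 11.1%, 20.7% and 39.2% under the same settings other than the seed. Genes at least 2-fold higher in CHIR+Activin numbered 59 at 2 or more UMIs, 49 at 3 to 5 UMIs, 43 without cells holding MESP1, SOX17 or APLNR, 64 with equal MIXL1 counts, 356 among genes from 1 CPM, 29 from 50 CPM and 209 at 1.5-fold. Genes at least 2-fold lower numbered 63 at 5 or more UMIs, 12 without cells holding MESP1, SOX17 or APLNR, 352 from 1 CPM, 2 from 50 CPM and 202 at 1.5-fold. The CPM and fold settings change which genes enter by construction, and for the other settings the cause was not tested. With another thinning seed 79 of the 98 higher and 10 of the 20 lower genes were found again, so the lower list depends on which UMIs were drawn.

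A UMI of EOMES was found in 61.3% of CHIR cells at 2 or more MIXL1 UMIs, 75.6% at 5 or more and 63.0% at 3 to 5. In CHIR+Activin it was found in 70.7%, 87.6% and 73.2%, and in 75.4% without cells holding MESP1, SOX17 or APLNR. Genes at least 2-fold higher in MIXL1-high cells of CHIR numbered 35 against all other cells and 121 at 5 or more UMIs. Of 30 named ratios of at least 2-fold, 0 changed direction under these settings, and 20 to 30 were still 2-fold. These ratios were chosen as 2-fold in the main setting. All settings reuse the same 2 libraries with overlapping cells, so a change of direction was unlikely from the start. No paired analysis was possible because each treatment has 1 library. Leaving out a replicate was not possible for the same reason. Culture, library and treatment cannot be told apart, nor can the CHIR99021 dose and Activin. At 10000 UMIs per cell a gene of few molecules is missed in many cells that express it.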
